A study of Mus musculus with 12 samples.

Results

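The genotype by diet interaction was measured over all genes in elicited mouse macrophages. It is the effect of genotype on high-fat diet (HFD) minus the effect of genotype on chow. Per gene this is (meKO HFD - WT HFD) - (meKO chow - WT chow) on the log2 scale. It equals the diet effect in meKO minus the diet effect in WT. A value of 0 means that diet moved the gene by the same factor in both genotypes. All 12 of the 12 libraries of the series enter the contrast, and all 12339 of the 12339 genes in the count table were tested.

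WT and meKO mice were each kept on chow or put on HFD, and each of the 4 resulting groups had 3 libraries. WT is wild type, and meKO is read from the series title as a knockout of protein kinase C epsilon (gene Prkce) in myeloid cells. Per the labels, every mouse of every group, chow controls included, received AAV8PCSK9 at 8 weeks of age, a vector used to deplete hepatocytes of the LDL receptor. Western-type HFD was then fed or chow kept for 4 weeks. Macrophages were drawn to the peritoneum with sterile thioglycolate and washed out. The design text counts 4 WT and 4 meKO mice on HFD, more than the 3 libraries per group analysed here. The labels used here give no strain, no recombinase line or promoter for the deletion, and no statement of the deleted part of the gene. Each title carries its own number, which is taken here to be an animal; whether any libraries share an animal is not stated, and p-values measure the spread between these libraries.

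Protein kinase C epsilon is a serine/threonine kinase that is activated by diacylglycerol without calcium, and in macrophages it takes part in phagocytosis and in signalling from Toll-like receptors. Macrophages that take up much cholesterol store it as esters in lipid droplets. Oxysterols then activate the LXR receptors, which turn on exporters such as Abca1 and Abcg1, while sterols hold SREBP-2 in the endoplasmic reticulum and so lower cholesterol synthesis and LDL receptor expression. An interaction asks whether loss of the kinase alters such a response to diet, which neither the diet effect in 1 genotype nor the genotype effect on 1 diet answers.

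Library totals ran from 25844958 to 37282772 counts over the listed genes. Levels are given in CPM, counts relative to the library total, scaled by TMM factors between 0.935 and 1.09. Replicates of a group correlated at 0.977 to 0.990 in log2 CPM (Pearson's r across genes). Every listed gene reached at least 0.501 CPM in 6 libraries, so genes that only 1 group of 3 expresses may be missing from the table. WT chow replicates 1 and 2 stood apart from the other 10 libraries in their relation to transcript length, and their values are given with the results they touch.

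Prkce itself, on chromosome 17, was low in all libraries. WT chow held 4.27, 4.44 and 2.35 CPM. WT HFD held 2.01, 2.89 and 2.53 CPM. The knockout libraries were at 1.42, 0.950 and 1.62 CPM on chow, and on HFD at 1.78, 0.954 and 1.51 CPM. Every meKO library lay below every WT library, while the 2 diets overlapped within each genotype. The interaction of Prkce was 0.68 ± 0.44 (SE; 95% interval -0.26 to 1.62) and did not pass (edgeR adjusted p = 0.812). Lyz2, the lysozyme of macrophages and neutrophils, had an interaction of 0.58 ± 1.73. Every WT library lay between 30482 and 53835 CPM. In meKO, chow replicate 2 was at 69.3 CPM and the remaining libraries lay between 16293 and 21310 CPM, below every WT library. Without meKO chow replicate 2 the interaction of Lyz2 was -0.014.

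Of the 12339 genes, 2 passed an adjusted p of 0.05 in edgeR's quasi-likelihood test, which is 0.0162% of those tested. Both were higher, Rpl29 and an unnamed gene with the Entrez identifier 100504629, and 0 were lower. At an unadjusted p under 0.05 there were 756 genes (6.13%), of which 531 (4.3%) had an interaction above 0 and 225 (1.82%) below. The median interaction over all genes was 0.02, and 52.9% of genes were above 0. In the simple contrasts of the same fit, genotype passed in 10 genes (0.081%) on chow and in 10 (0.081%) on HFD. Diet passed in 2634 genes (21.3%) among WT mice and in 13 (0.105%) among meKO mice. The 2634 against 13 is not itself a test of a difference between the genotypes; the interaction is that test, and it gave the 2 genes.

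An interaction can be set by any of the 4 groups, so each gene was checked for a group whose 3 libraries all lay above, or all below, the other 9. Over all genes this held for WT chow in 1266 (10.3%), above in 635 (5.15%) and below in 631 (5.11%). It held for WT HFD in 153 (1.24%), above in 51 (0.413%) and below in 102 (0.827%), for meKO chow in 72 (0.584%) and for meKO HFD in 324 (2.63%), of which 159 (1.29%) were below. Among the 756 genes with an unadjusted p under 0.05 it held for WT chow in 287 (37.96%), above the rest in 209 and below in 78. For WT HFD it held in 60 of them (7.94%), for meKO HFD in 36 (4.76%) and for meKO chow in 21 (2.78%). The same values make the interaction, so these shares are a description. In 391 of the 756 (51.7%) at least 1 group stood apart in this way, most often WT chow. The plot of 8 genes by library shows each of these forms.

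**Figure D1:**
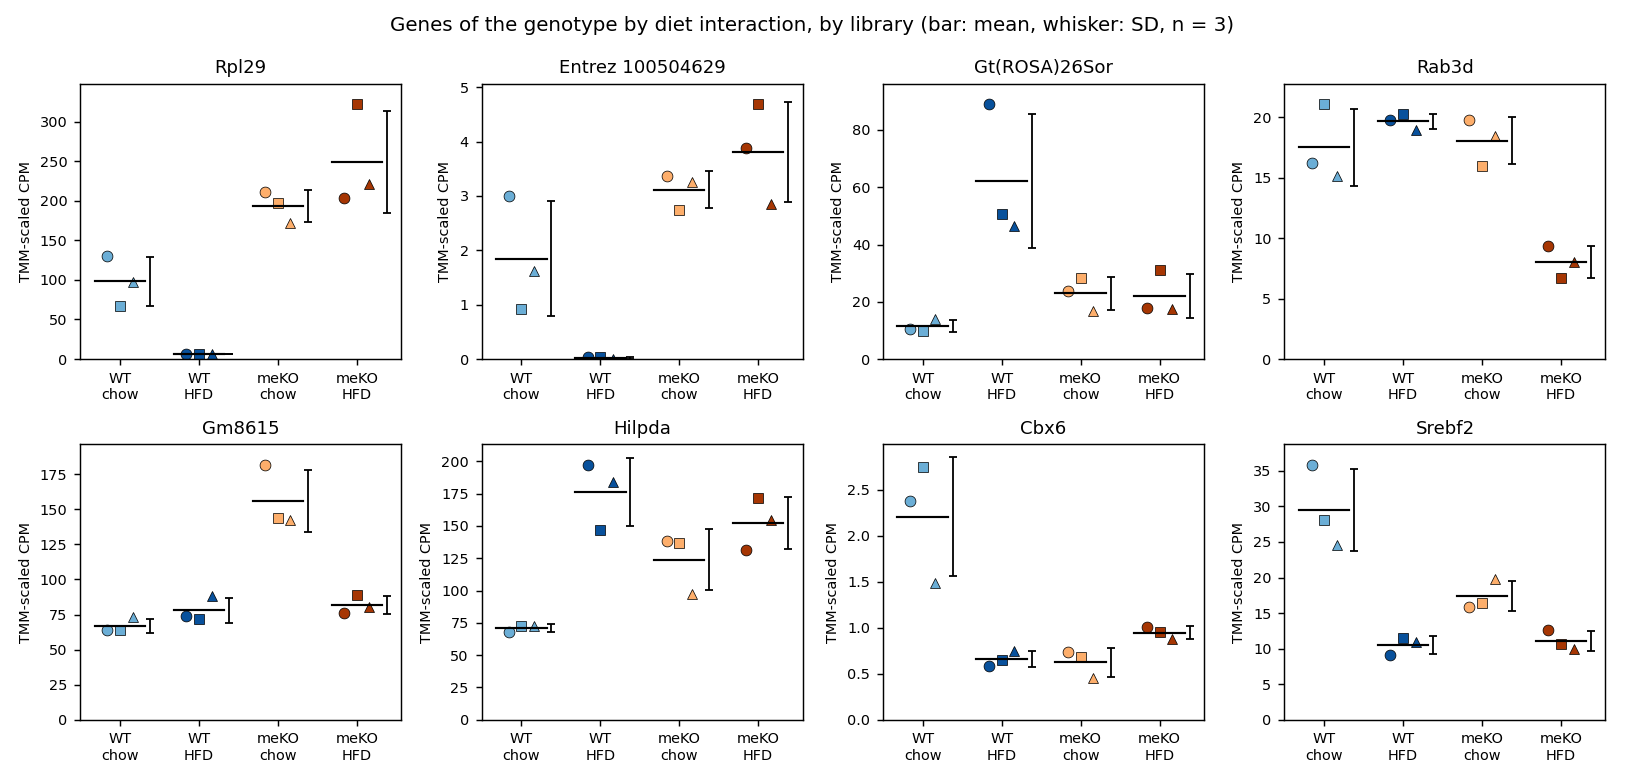
TMM-scaled CPM (vertical axis, linear) of 8 genes in the 12 libraries, by group; circles, squares and triangles are replicates 1, 2 and 3, bars are means and whiskers SD (n = 3). Rpl29 and Entrez 100504629 are lowest in WT HFD, and for Rpl29 WT chow lies between WT HFD and the meKO libraries. Rab3d is low in meKO HFD alone, and Gm8615 is high in meKO chow alone. Hilpda, Cbx6 and Srebf2 have WT chow apart from the other 9 libraries.

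Rpl29 encodes a protein of the large ribosomal subunit and lies at chr9:106428889-106431568 (RefSeq, GRCm38.p6). The 3 WT chow libraries had 129.9, 67.2 and 97.5 CPM. WT HFD had 6.51, 6.89 and 6.65 CPM. The 6 meKO libraries had 211, 197 and 171 CPM on chow and 204, 322 and 221 CPM on HFD. The WT HFD libraries were the lowest 3 of the 12 and close to each other, WT chow was intermediate, and the 2 meKO groups overlapped at the top. The log2 change with diet was -3.88 in WT and 0.37 in meKO. The interaction was 4.24 ± 0.31 (SE; 95% interval 3.58 to 4.91; edgeR adjusted p = 2.53e-05). It passed in each of 23 alternative settings, with values from 3.97 to 4.61.

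Reads of Rpl29 are hard to place, because mice carry many processed copies of ribosomal protein genes. Of the 796 windows of 50 bases in its longest annotated transcript, 381 (47.9%) also occur in transcripts of 80 other annotated genes (GENCODE M21). The highest tally of shared windows, added over transcripts, was that of the pseudogene Rpl29-ps2 at chr13:4609334-4615025 on the plus strand. The number of windows shared with it alone was not counted. The reading frame of Rpl29 is 483 bases long and differs at 11 bases from the best-matching stretch of this copy. The first 120 bases of the frame and the matching bases of the copy are shown 5′ to 3′. They show how little separates a read of the gene from a read of its copy. The capital marks the base that differs, the single difference in this stretch.
Rpl29: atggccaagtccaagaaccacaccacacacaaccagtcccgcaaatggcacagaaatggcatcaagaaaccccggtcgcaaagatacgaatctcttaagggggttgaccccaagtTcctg
Rpl29-ps2: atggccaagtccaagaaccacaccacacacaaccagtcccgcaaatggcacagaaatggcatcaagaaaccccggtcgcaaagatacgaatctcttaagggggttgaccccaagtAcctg
Neither the aligner nor the treatment of reads with several matches is given in the sources used here, so the Rpl29 values are uncertain to that extent. The part of such reads in the interaction was not tested.

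Of the cytosolic ribosomal proteins, which together form the ribosome, 78 of the 79 listed genes were measured. Rpl29 was the 1 that passed, 0 others had an unadjusted p under 0.05, and the median interaction of the list was -0.11, with 19 members above 0. The median moved between -0.45 and 0.30 over the alternatives, so its sign depends on the setting. Rps18, a protein of the small subunit, had 14.1, 1.44 and 1.92 CPM in WT chow, and WT HFD had 2.17, 2.07 and 2.17 CPM. In meKO it was 1.78, 17.4 and 34.2 CPM on chow and 20.8, 62.6 and 21.8 CPM on HFD. WT chow and meKO chow each held both low and high libraries, and the interaction of 2.45 ± 1.57 did not pass (adjusted p = 0.812). For Rps18, 32.2% of the 50-base windows occur in transcripts of 146 other genes.

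The second called gene, Entrez 100504629, has neither symbol nor position in the tables used here. WT chow held 2.999, 0.91 and 1.62 CPM, and WT HFD 1, 1 and 0 counts. In meKO it stood at 3.37, 2.74 and 3.25 CPM on chow and 3.88, 4.69 and 2.86 CPM on HFD. WT HFD was again below the other 9 libraries, and the 2 meKO groups overlapped. With WT HFD set to 3 counts per library, meKO HFD was at least 39.3-fold higher and WT chow at least 19.0-fold higher. On chow meKO stood 1.69-fold above WT, so the ratio of the 2 genotype ratios was at least 23.3. The edgeR adjusted p was 0.00574. Without WT HFD replicate 1 it rose to 0.0521, and it ranged from 1.39e-05 to 0.0521 over 21 alternatives, of which 20 kept the call.

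Rpl29 lies in a stretch of chromosome 9 where other genes followed the same form. On the whole chromosome 69 of 653 genes (10.6%) had an unadjusted p under 0.05, against 6.13% of all genes. Within 1 Mb of the start of Rpl29 it was 9 of 25 genes (36%), all higher, and in 9 of the 25 the WT HFD libraries stood apart, against 1.24% of all genes. Within 2 Mb it was 16 of 58 genes (27.6%), within 5 Mb 24 of 115 (20.9%) and within 20 Mb 30 of 246 (12.2%). The share thus fell with distance. Apart from Rpl29, none of them passed after adjustment over all genes, and the stretch was looked at because earlier results of these data had pointed to it.

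Dusp7 encodes a phosphatase that acts on MAP kinases. WT HFD held 19.97, 19.6 and 19.3 CPM, below WT chow (38.5, 28.1 and 25.8 CPM), meKO chow (36.1, 38.4 and 31.9 CPM) and meKO HFD (43.6, 34.5 and 34.4 CPM). Its interaction was 0.73 ± 0.21. Alas1, which catalyses the first step of heme synthesis, was at 79.1, 82.2 and 76.6 CPM in WT HFD, and the other 9 libraries lay between 84.0 and 169 CPM, an interaction of 0.70 ± 0.21. Abhd14b, an alpha/beta hydrolase, was at 4.17, 3.68 and 4.12 CPM in WT HFD against 7.97 to 14.8 CPM elsewhere, with 0.82 ± 0.23. In all 3 genes the WT HFD values lay closer together than those of any other group. Tlr9, the endosomal receptor for unmethylated CpG DNA, had 1.26, 1.55 and 0.78 CPM in WT HFD and 1.87 to 9.48 CPM in the other libraries (1.80 ± 0.51). Acp3, an acid phosphatase further along the chromosome, had 0.55, 0.45 and 0.66 CPM in WT HFD and 2.35 to 9.88 CPM in the others (2.87 ± 0.70). Their adjusted p ran from 0.631 for Acp3 to 0.773 for the other 4.

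Of the other genes within the 5 nearest on each side, Poc1a (0.62 ± 0.28), Abhd14a (0.64 ± 0.29) and Parp3 (0.44 ± 0.21) were estimated above 0, the last with an unadjusted p of 0.0574. Poc1a is a centriole protein and Parp3 acts in the repair of DNA breaks. Twf2 (0.11 ± 0.16), an actin-binding protein, Acy1 (-0.15 ± 0.32), an aminoacylase, and Pcbp4 (-1.04 ± 0.58), an RNA-binding protein, lay between or beside these genes and did not share the form. Dock3, named here after its values were seen, had a mean of 0.54 CPM and an interaction of 3.47 ± 0.87. Its WT HFD libraries held 1, 3 and 1 counts, so the size of this interaction is uncertain.

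Nudt16, a nucleotide hydrolase on the same side of Rpl29 as Acp3, had the mirror form. WT HFD was the highest group, with 93.1, 94.4 and 94.7 CPM. WT chow varied between 17.6, 53.5 and 61.6 CPM, while the 6 meKO libraries lay between 19.0 and 23.9 CPM. WT chow replicate 1 thus fell below the meKO range and the other 2 WT chow libraries above it. The interaction was -1.18 ± 0.45 (unadjusted p = 0.0211, adjusted p = 0.773). Entrez 100503055, also named after its values were seen, has no position in the sources used here, so its chromosome is not known. It had 2.26, 7.05 and 11.1 CPM in WT chow, at least 16.8 CPM in WT HFD and 2.13 to 3.78 CPM in meKO. WT chow replicate 1 was again the lowest WT library. Hyal1, a lysosomal hyaluronidase, was estimated at -0.58 ± 0.23. The plot of interactions around Rpl29 shows both directions.

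**Figure D2:**
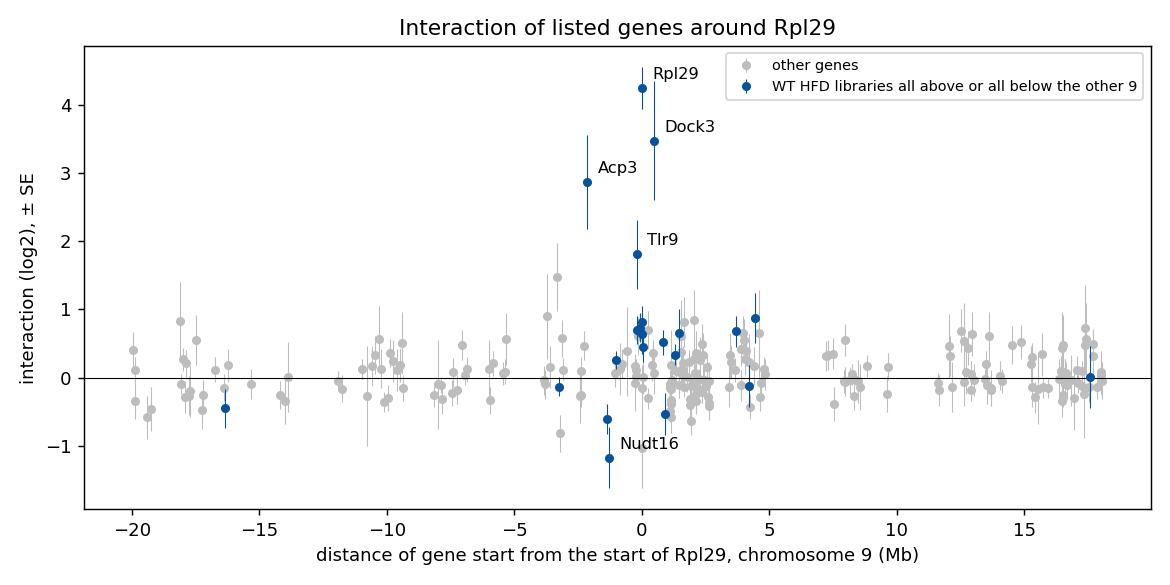
Interaction (log2, vertical axis, whiskers SE) of the listed genes within 20 Mb of Rpl29 against the distance of their start from that of Rpl29 (horizontal axis, Mb). Blue marks the 21 genes whose 3 WT HFD libraries were all above or all below the other 9; 9 of them lie within 1 Mb.

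Among genes of at least 1 CPM, several of the smallest p-values belonged to genes with WT chow apart. Hilpda, which coats lipid droplets and slows lipolysis, stood at 67.6, 72.8 and 72.5 CPM in WT chow. The other groups held 197, 147 and 184 CPM (WT HFD), 138, 136 and 97.1 CPM (meKO chow) and 131, 172 and 154 CPM (meKO HFD). WT chow was low, WT HFD lay above meKO chow, and meKO HFD overlapped both. The diet effect was 1.31 in WT and 0.30 in meKO, and the interaction -1.01 ± 0.21 (95% interval -1.47 to -0.55; edgeR adjusted p = 0.466). Lipn, a member of the acid lipase family, showed the same form: 16.7 to 18.7 CPM in WT chow and 28.7 to 43.8 CPM elsewhere (-0.73 ± 0.17).

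Cbx6, a chromobox protein of Polycomb complexes, stood at 2.38, 2.74 and 1.49 CPM in WT chow and between 0.45 and 1.01 CPM in the other 9 libraries (2.32 ± 0.43; adjusted p = 0.189). Ralgds, an exchange factor for Ral GTPases, had 17.7 to 22.5 CPM in WT chow and at most 16.2 CPM elsewhere (0.85 ± 0.18; 0.405). Itpr1, a calcium channel of the endoplasmic reticulum opened by inositol trisphosphate, had 17.4 to 27.9 CPM against 11.4 to 14.5 CPM (0.94 ± 0.22; 0.631). In all 3 the WT chow libraries were high, and their own spread was wider than that of any other group. The longest transcripts of Cbx6 and Itpr1 have 7850 and 9870 bases, and WT chow replicates 1 and 2 were raised in long transcripts, as described below. After a correction for length and GC content the interaction of Cbx6 was 1.90. Over the alternatives Itpr1 went as low as 0.56 and Ralgds as low as 0.63, with the sign kept.

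The long noncoding RNA of the Rosa26 locus, Gt(ROSA)26Sor on chromosome 6, had both WT groups apart. WT chow held 10.6, 9.96 and 13.9 CPM, the lowest 3, and WT HFD 89.1, 50.7 and 46.6 CPM, the highest 3. The meKO libraries lay between, at 23.8, 28.2 and 16.9 CPM on chow and 17.9, 31.0 and 17.4 CPM on HFD, and overlapped. The interaction was -2.50 ± 0.40 (95% interval -3.35 to -1.64; adjusted p = 0.0718). Eepd1, a nuclease that acts at stalled replication forks, had the same order with smaller distances: 67.6 to 77.4 CPM in WT chow, 118 to 130.3 CPM in WT HFD and 87.1 to 105 CPM in meKO (-0.65 ± 0.14; 0.467).

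Rab3d, a small GTPase of secretory vesicles, was set by meKO HFD. That group held 9.34, 6.68 and 8.06 CPM. WT chow held 16.2, 21.1 and 15.2 CPM, WT HFD 19.8, 20.2 and 19.0 CPM and meKO chow 19.8, 16.01 and 18.4 CPM. The meKO HFD libraries were low and the 3 other groups overlapped. The interaction was -1.34 ± 0.22 (95% interval -1.81 to -0.87; adjusted p = 0.0718). It passed in 6 of 23 alternatives, among them the one that corrects for transcript length and GC content (-1.49; adjusted p = 0.00152). Over all 23 the adjusted p ran from 1.42e-05 to 0.297. Rab3d is also on chromosome 9, far outside the stretch described above.

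Pirb, an inhibitory immunoglobulin-like receptor of myeloid cells, showed the same form: 393, 309 and 361 CPM in meKO HFD and 551 to 800.2 CPM in the other 9 libraries (-0.82 ± 0.20). Its activating relative Pira2 had 118 to 140.4 CPM in meKO HFD and 181 to 260.03 CPM elsewhere (-0.77 ± 0.20). Neither passed (adjusted p = 0.631 and 0.640). Both belong to a multigene family of near-identical members, so their counts are uncertain. Atp1b1, a subunit of the sodium-potassium pump, had meKO chow lowest (2.56 to 3.18 CPM) and meKO HFD highest (5.35 to 7.35 CPM), with the 6 WT libraries at 4.20 to 4.96 CPM (1.10 ± 0.24; 0.470). Tacc2, a microtubule-associated protein, had high values in WT chow (3.44 to 5.998 CPM) and meKO HFD (4.40 to 4.88 CPM) and lower ones in the other 2 groups (2.45 to 3.20 CPM), with 1.49 ± 0.29 (adjusted p = 0.329).

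Gm8615, annotated as a transcribed pseudogene on chromosome 5, was set by meKO chow. That group held 182, 144 and 142 CPM, and the other 9 libraries lay between 63.9 and 88.8 CPM. The interaction was -1.15 ± 0.18 (95% interval -1.53 to -0.78; adjusted p = 0.0560). Of its 50-base windows 57.2% also occur in transcripts of Gnpda1, a glucosamine-6-phosphate deaminase on chromosome 18, which was named here for that reason after the values were seen. Gnpda1 went the other way, with 264, 224 and 210 CPM in meKO chow and 281 to 401 CPM in the other libraries (0.43 ± 0.17). The summed counts of the pair gave 445, 368 and 352 CPM in meKO chow and 345 to 490.3 CPM elsewhere. On the sum the interaction was -0.02 ± 0.17 (95% interval -0.38 to 0.35; unadjusted p = 0.931), and meKO chow no longer stood apart.

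Camk2a, a calcium/calmodulin-dependent kinase known from neurons, was among the smallest p-values with a different form. It stood at 3.65, 4.80 and 0.79 CPM in WT chow and 4.07, 1.37 and 3.41 CPM in meKO HFD, while the 6 libraries of the other groups lay between 0.90 and 1.17 CPM. WT chow replicates 1 and 2 and meKO HFD replicates 1 and 3 were high, and the remaining library of each of these groups was near the others. The interaction was 3.17 ± 0.73 (adjusted p = 0.622). A list of 34 brain-enriched genes was then written after these values were seen, in part from genes of this form, so its counts are a description. Of the 18 measured, 18 were above 0, 16 had an unadjusted p under 0.05, all higher, and the median was 2.34. In 13 of the 18 those 4 libraries were all above the other 8, a form that 69 genes of the whole table had.

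The summed level of the 18 genes was 43.3, 51.3 and 21.5 CPM in WT chow and 48.7, 28.9 and 45.5 CPM in meKO HFD. WT HFD had 26.1, 27.5 and 21.2 CPM, and meKO chow 26.4, 25.7 and 24.99 CPM. The split ran within WT chow and meKO HFD, not between groups. The genes were low, with a median mean of 0.88 CPM and a highest mean of 12.3 CPM. Cplx2, which clamps synaptic vesicle fusion, had 2.32, 2.29 and 0.66 CPM in WT chow and 1.45, 0.31 and 1.63 CPM in meKO HFD. Slc1a2, a glutamate transporter, had 1.22, 1.76 and 0.40 CPM and 1.34, 0.61 and 1.47 CPM in these groups. The source of these transcripts was not tested.

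**Figure D3:**
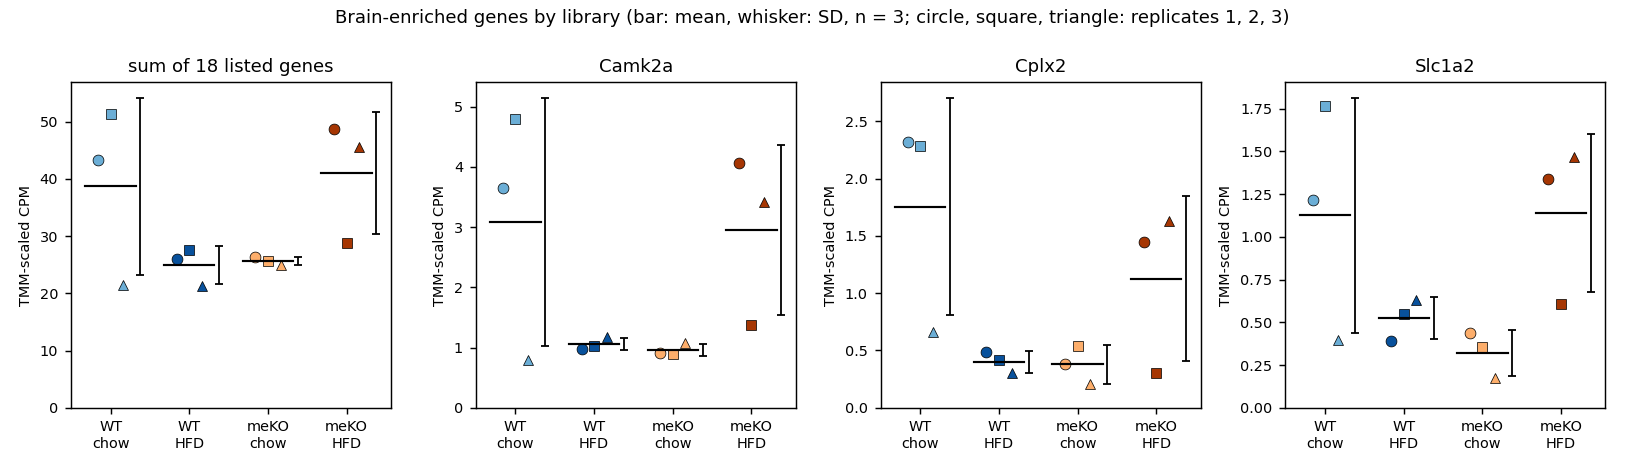
TMM-scaled CPM (vertical axis, linear) by group of the sum of the 18 measured brain-enriched genes and of Camk2a, Cplx2 and Slc1a2; circles, squares and triangles are replicates 1, 2 and 3, bars are means and whiskers SD (n = 3). WT chow replicates 1 and 2 and meKO HFD replicates 1 and 3 lie above the other 8 libraries in the sum, at 43.3 to 51.3 CPM against 21.2 to 28.9 CPM.

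The interaction followed transcript length. The 11532 genes with a length were split by it into 5 bins of nearly equal number. In the shortest bin the median was -0.15, with 28 genes higher and 102 lower at an unadjusted p under 0.05. In the longest bin the median was 0.26, with 263 higher and 8 lower. The bins between had medians of -0.06, 0.03 and 0.10. Spearman's rho across these genes, which share the same libraries, was 0.47. Per library, the rho between length and a gene's deviation from its mean over libraries was 0.60, 0.65 and -0.04 in WT chow, while the other 9 libraries lay between -0.43 and 0.12. WT chow replicates 1 and 2 therefore moved with length against the third library of their group. With a correction of each library for length and GC content the rho was 0.03, 2 genes passed (Rpl29 and Rab3d), and 758 had an unadjusted p under 0.05, of which 44.1% were higher, against 70.2% without it. Entrez 100504629 has no known length and is not in that fit. Without WT chow replicates 1 and 2 the rho was -0.15 and 55.2% of 337 genes were higher, and without WT chow replicate 3 the rho was 0.57 and 56 genes passed.

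**Figure D4:**
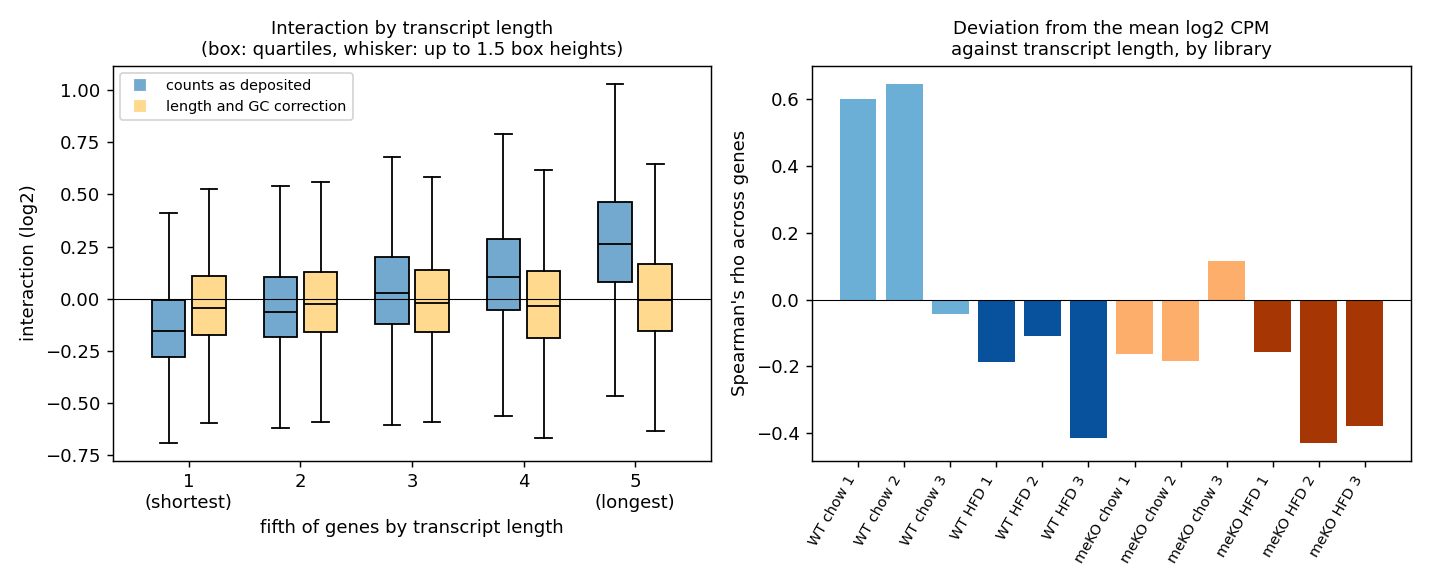
Left: interaction (log2) by transcript length, in 5 bins, for the counts as deposited and after the correction for length and GC content (boxes are quartiles, whiskers reach up to 1.5 box heights). Right: Spearman's rho across genes, per library, between transcript length and the deviation of log2 CPM from its mean; the values 0.60 and 0.65 of WT chow replicates 1 and 2 are the highest.

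The genes of cholesterol handling that the study's mice invite were taken by role. For each list below, the shares over all genes were 4.3% higher and 1.82% lower at an unadjusted p under 0.05, and 52.9% above 0. A list with 1 such gene therefore reads as no result about the list. Among 20 cholesterol synthesis genes, all measured, 0 passed, 1 had an unadjusted p under 0.05 (higher) and 0 lower, and the median interaction was 0.11 with 14 above 0. The diet medians of the list were -0.58 in WT and -0.37 in meKO. Fdps, which makes farnesyl diphosphate, stood at 5.91, 3.95 and 6.68 CPM in WT chow, and WT HFD had 2.49, 3.03 and 2.80 CPM. In meKO it was 3.67, 4.75 and 5.29 CPM on chow and 3.85, 3.17 and 3.41 CPM on HFD. WT HFD lay below the other 9 libraries (0.60 ± 0.30; 95% interval -0.05 to 1.25). Hsd17b7, a later enzyme of the pathway, had WT chow highest, at 3.27 to 4.02 CPM against 1.04 to 2.63 CPM elsewhere (0.69 ± 0.36; 95% interval -0.08 to 1.47).

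Of 12 measured genes of SREBP sensing and sterol import, 1 had an unadjusted p under 0.05, and the median was 0.16. This was Srebf2, which encodes SREBP-2. It stood at 35.9, 28.1 and 24.6 CPM in WT chow, above all others, and WT HFD had 9.13, 11.5 and 10.9 CPM. The meKO values were 15.8, 16.5 and 19.8 CPM on chow and 12.6, 10.6 and 9.97 CPM on HFD. Both genotypes were lower on HFD, by 1.49 in WT and 0.65 in meKO as differences of log2 values, and the interaction was 0.84 ± 0.23 (95% interval 0.36 to 1.33; unadjusted p = 0.00238, adjusted p = 0.751). Npc1 (0.34 ± 0.19) and Npc2 (-0.35 ± 0.18), which carry cholesterol out of lysosomes, were estimated on opposite sides of 0.

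All 15 LXR receptors and targets were measured. Of these 0 passed, 0 were higher and 1 was lower at an unadjusted p under 0.05, and 2 were above 0, with a median of -0.14. Diet medians were 0.55 in WT and 0.39 in meKO. The exporter Abca1 had an interaction of 0.11 ± 0.35 (95% interval -0.63 to 0.86), and Abcg1 one of -0.00 ± 0.25 (-0.54 to 0.53). In the main fit with all 12 libraries, a difference of the diet effects of 2-fold or more lies outside the interval of Abcg1. For Abca1 the same holds in that fit, but its WT chow libraries varied, at 265, 470 and 200 CPM. Without WT chow replicates 1 and 2 the interaction of Abca1 was -0.53, so the limit is stated for the main fit alone. The sign of both depended on the setting. Smpdl3a, a phosphodiesterase induced by LXR, was the 1 lower gene (-0.56 ± 0.21; unadjusted p = 0.0161), with WT chow at 698, 860.1 and 1060 CPM and the other libraries at 968 to 1341 CPM. Lpcat3, an acyltransferase for membrane phospholipids, was at -0.28 ± 0.14, and the receptor gene Nr1h2 at -0.24 ± 0.15.

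In fatty acid synthesis 10 of 13 listed genes were measured, 1 was higher at an unadjusted p under 0.05 and the median was 0.28. Fads1, the delta-5 desaturase, stood at 38.7, 18.3 and 13.7 CPM in WT chow and between 6.17 and 12.9 CPM elsewhere (1.37 ± 0.43; adjusted p = 0.773). WT chow replicate 1 was more than 2-fold above the other WT chow libraries. Scd1, the delta-9 desaturase, was higher on HFD in both genotypes (1.21 in WT and 1.53 in meKO), with an interaction of 0.32 ± 0.22 (95% interval -0.15 to 0.78; adjusted p = 0.812). Of 12 measured lipid droplet and lipase genes 1 was lower, Hilpda, and the median was -0.08. Soat1, which esterifies cholesterol, was at 0.30 ± 0.16, and Lipa, which frees it in lysosomes, at -0.43 ± 0.22. Of 11 scavenger receptor and lipid uptake genes 0 had an unadjusted p under 0.05 in either direction (median 0.08), with Colec12 at 0.45 ± 0.33 and Msr1 at -0.24 ± 0.20.

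Of 14 lipid-associated macrophage genes, all measured, 2 were above 0, against 52.9% of all genes, and the median was -0.26. At an unadjusted p under 0.05, 1 was lower, against 1.82% of all genes. This 1 was Cd9, a tetraspanin (-0.40 ± 0.18; unadjusted p = 0.0437), at 545 to 644 CPM in WT chow and 794 to 1222 CPM elsewhere. Spp1, osteopontin, was also lowest in WT chow (2810 to 4379 CPM against 4647 to 7770 CPM), at -0.61 ± 0.30. The list's genotype medians were 0.35 on chow and 0.14 on HFD, and its diet medians 0.35 in WT and 0.10 in meKO. Cd9 and Spp1 had WT chow apart, while Lipa, whose unadjusted p of 0.0658 lay between theirs, had no group apart.

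The list of the kinase's relatives, which does not hold every isoform, and the inflammatory lists gave 0 genes at an unadjusted p under 0.05 in either direction, where 6.13% of all genes had one. The lists were the protein kinase C family (12 measured, median 0.25), inflammatory cytokines and chemokines (17, -0.17), interferon-stimulated genes (16, -0.13) and alternative activation markers (12, -0.02). Of the listed isoforms Prkcb, the beta isoform, came nearest (0.57 ± 0.27; unadjusted p = 0.0541), with WT chow at 48.8 to 60.4 CPM and the other libraries at 21.8 to 44.6 CPM. Among the cytokines Il1a was at -0.55 ± 0.29, Ccl5 at 0.66 ± 0.39 and Cxcl1 at -0.87 ± 0.59. Of the interferon-stimulated genes Stat2 was at 0.37 ± 0.19, Irf7 at -0.32 ± 0.23 and Oas1a at -0.38 ± 0.28. Mgl2 (0.74 ± 0.38), Mrc1 (0.34 ± 0.23) and Chil3 (-0.80 ± 0.59), markers of alternative activation, spread to both sides of 0.

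Of 14 measured genes of apoptotic cell clearance 1 was higher, Elmo1 (0.48 ± 0.21), which with Dock1 (0.46 ± 0.25) activates Rac during engulfment, and the median was 0.16. Of 12 matrix metalloproteinases and inhibitors 1 was higher, and the median was 0.17. Mmp9, the gelatinase, had 33.4, 20.5 and 19.6 CPM in WT chow, against 5.92, 7.61 and 5.41 CPM on HFD. In meKO it had 18.2, 20.95 and 26.7 CPM on chow and 9.21, 8.89 and 9.25 CPM on HFD. It was lower on HFD in both genotypes, with WT HFD lowest (0.69 ± 0.30; unadjusted p = 0.0350, adjusted p = 0.791). Timp2, an inhibitor of these proteases, was lowest in meKO HFD (-0.31 ± 0.15). The unfolded protein response (15 measured, median 0.15) and the cell cycle (18 measured, median 0.27, 16 above 0) had 0 genes at an unadjusted p under 0.05 in either direction. Mki67 was at 0.88 ± 0.51 and Top2a at 0.64 ± 0.31.

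**Figure D5:**
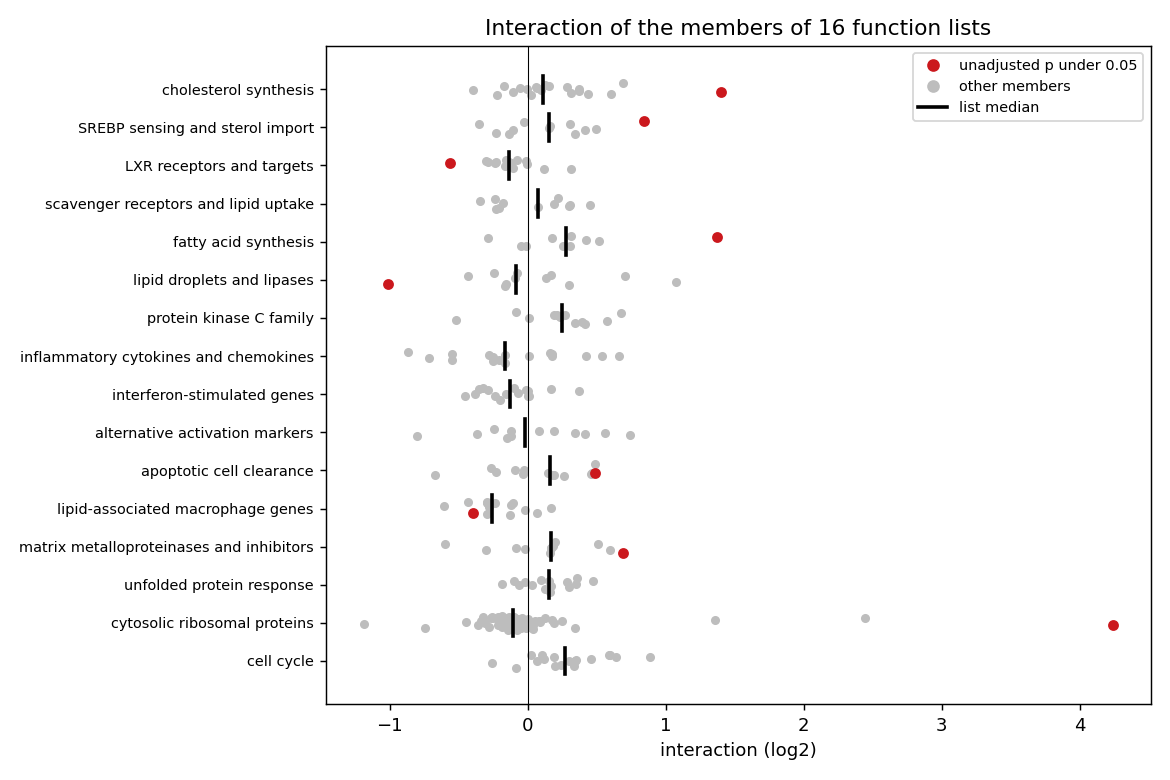
Interaction (log2, horizontal axis) of each measured member of 16 function lists; red points have an unadjusted p under 0.05 and black bars are list medians. For the counts as deposited, medians lie between -0.26 (lipid-associated macrophage genes) and 0.28 (fatty acid synthesis). Several move with the setting. Rpl29 at 4.24 is the point farthest from 0.

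Markers of other cells were present in all groups, at levels that varied between libraries. In bulk RNA fewer cells of a type and less RNA per cell cannot be told apart. All 10 macrophage markers were measured, with 0 at an unadjusted p under 0.05. Their summed level was 37260.2 to 59858 CPM in WT chow and 36545 to 43615 CPM in WT HFD, and 6125 to 27809.7 CPM in meKO chow and 22637 to 24382 CPM in meKO HFD, of which Lyz2 is the main part. The median genotype effect of the 10 markers was -0.15 on chow and -0.07 on HFD (log2). All 8 dendritic cell markers were above 0, against 52.9% of all genes, with a median of 0.57. Of them 1 was higher at an unadjusted p under 0.05, against 4.3% of all genes. The dendritic cell markers summed to 124 to 147 CPM in WT chow, 75.7 to 89.6 CPM in WT HFD, 66.6 to 129 CPM in meKO chow and 74.5 to 98.8 CPM in meKO HFD. The 8 measured B cell markers were above 0 as well (median 0.46, 0 at an unadjusted p under 0.05), with 203 to 257 CPM in WT chow, 116 to 139.9 CPM in WT HFD, 145 to 257 CPM in meKO chow and 131 to 219 CPM in meKO HFD. Markers of resident large peritoneal macrophages summed to 214 to 658 CPM in WT chow, 967 to 1579 CPM in WT HFD, 447 to 1034 CPM in meKO chow and 604 to 1424 CPM in meKO HFD (median 0.54). At an unadjusted p under 0.05, 2 of 12 T and NK cell markers and 1 of 8 mast cell markers were higher, where 4.3% of all genes were, and counts this small read as no result about these cells. For neutrophils (7 measured), eosinophils (4), mesothelium and fibroblasts (11) and red blood cells (3), 0 had an unadjusted p under 0.05. The part of these cells in the interactions was not tested.

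A p that misses the threshold does not show that diet acted alike in both genotypes, so the intervals were counted. For 9006 genes (73.0%) the 95% interval lay within -1 to 1, which leaves out a 2-fold difference between the diet effects. Estimates of 1 or more in size were found for 277 genes, 214 higher and 63 lower, and 167 of these had an unadjusted p under 0.05. The median SE was 0.23, with 5th and 95th percentiles of 0.14 and 0.60. It depended on depth: for the 839 genes under 1 CPM the median SE was 0.57 and 1.19% of intervals lay within the limits, while for the 3142 genes at 50 CPM or more it was 0.18 and 94.0% did.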

How the data were processed

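The authors deposited raw counts, whole numbers for each gene in each library. Per the submitters' processing notes, DESeq2 and the build mm10 were used, with no role stated; the aligner, the counter and the strand setting are not given in the sources used here. The 186 genes without a symbol took 0.44% of the counts.

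Groups came from the sample titles, and replicate numbers follow accession order. Counts were fitted in edgeR 4.0.16 (R 4.3.3): TMM factors, filterByExpr (which kept all genes), robust dispersions, 4 group means over 12 libraries, and the two-sided quasi-likelihood F test with Benjamini-Hochberg adjustment over 12339 genes. SE is the size of the log2 value over the square root of F, and intervals use the t quantile at the fit's degrees of freedom. The function was tested on simulated data.

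Genes were named as follows: those called; the 8 smallest p-values in each direction among genes of at least 1 CPM on average; up to 3 per function list; the 5 on each side of Rpl29; and genes known from earlier results. Members, lists and alternatives were chosen with earlier results of these data known. Positions come from the RefSeq table (GRCm38.p6; 12100 genes), and lengths, GC content and sequences from GENCODE M21 (11532 genes). The alternatives were DESeq2 1.42.0, limma-voom (limma 3.58.1) without and with library quality weights, scaling by median-of-ratios factors or by library totals, no filter or a filter of 10 counts in each library, non-robust dispersions, a length and GC correction, and each library left out. Leaving out WT chow replicates 1 and 2, or meKO HFD replicates 1 and 3, was added after seeing the data. A few withheld items are not reported here.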

Additional observations from a re-analysis of the deposited data

Results flagged for a closer look

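The interaction of Rpl29 was 4.24, which passed the test of the difference between the diet effects. Within 1 Mb of its start, 9 of 25 genes had the WT HFD libraries apart as well. Whether diet or another difference between the animals of the groups set the Rpl29 values was not tested. The part of misplaced reads was not tested either. The interaction fitted for Entrez 100504629 was 6.48, likewise past the test; its size depends on the prior count, since the WT HFD libraries held 1, 1 and 0 counts, and it is no bound.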

How the results depend on the processing

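Rpl29 passed in all 23 alternatives. The count of 2 genes became 1 with at least 10 counts in every library, where Entrez 100504629 is not tested, 15 with DESeq2, 295 with voom and library quality weights, and 4 without meKO HFD replicates 1 and 3. With library totals it was 3, with Gm8615 added, and 78.7% of the genes at an unadjusted p under 0.05 were higher. Leaving out 1 library gave 1 (without WT HFD replicate 1) to 56 genes (without WT chow replicate 3). It gave 5 without meKO HFD replicate 1 and 4 without meKO HFD replicate 2. Of the genes near the threshold, Gm8615 passed in 5 of 22 alternatives, Gt(ROSA)26Sor in 4 of 23 and Rab3d in 6 of 23. Of the named genes, 9 changed sign under an alternative, and none of these was called. Without WT chow replicates 1 and 2 these were Dock1 (-0.0017), Mmp19 (-0.10), Mrc1 (-0.092), Ern1 (-0.22), Acy1 (0.32) and Abca1 (-0.53). Acy1 was 0.036 without meKO HFD replicates 1 and 3, Twf2 -0.019 with quality weights, Abca1 -0.27 after the correction for length and GC content, and Abcg1 0.056 with library totals and 0.10 with quality weights. With 1 library left out, Acy1 ran from -0.47 to 0.00299, Lyz2 from -0.014 to 1.03, Abca1 from -0.32 to 0.33 and Abcg1 from -0.19 to 0.17. The causes were not tested. No paired analysis was possible because the titles give no number shared across groups. Depth limits genes under 1 CPM most. List medians moved with the setting as well. After the correction for length and GC content, fatty acid synthesis went from 0.28 to 0.086 and the protein kinase C family from 0.25 to 0.052. Apoptotic cell clearance went from 0.16 to -0.055 and scavenger receptors and lipid uptake from 0.08 to -0.18. The LXR list moved away from 0, from -0.14 to -0.26, and lipid-associated macrophage genes went from -0.26 to -0.23.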

Other observations

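Gapdh and Gapdh-ps15 were chosen after their values were seen. Gapdh, a glycolytic enzyme that most cells express strongly, was counted at 27.0 to 34.5 CPM in WT chow and 37.7 to 67.9 CPM in the other libraries. Gapdh-ps15, named as a processed pseudogene on the Y chromosome, was counted higher, at 71.7 to 81.1 CPM in WT chow and 108 to 182 CPM elsewhere. Their interactions were -0.47 ± 0.20 and -0.72 ± 0.19 (edgeR adjusted p = 0.791 and 0.679), with WT chow lowest in both.

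S100a9, a calcium-binding protein of neutrophils and monocytes, had 0.20 to 0.37 CPM in WT chow, 0.76 to 0.96 CPM in WT HFD, 1.87 to 3.83 CPM in meKO chow and 2.78 to 4.69 CPM in meKO HFD. It was higher in meKO on both diets, and its interaction was -0.99 ± 0.48 (adjusted p = 0.797). Its WT chow counts were 13, 6 and 10. This was the lowest interaction of the 7 measured neutrophil markers, which had a median of 0.16 with 4 above 0. Csf1, the growth factor of macrophages, was at 0.95 ± 0.24 (0.679), with 3.37 to 4.02 CPM in WT chow and 4.04 to 4.37 CPM in meKO HFD, above the other 2 groups at 2.25 to 3.19 CPM.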
